A study of Mus musculus with 10 samples.

Results

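The genes of Wnt signalling were examined in hearts of mouse embryos at E12.5. They are 18 Wnt ligands, the frizzled receptors, Sfrp and Dkk inhibitors and R-spondins, chosen by gene symbol, together with the co-receptors Lrp5 and Lrp6, the R-spondin receptors Lgr4, Lgr5 and Lgr6, the inhibitor Wif1, the nuclear factors Lef1 and Tcf7, the feedback inhibitor Axin2, and Ror1, Ror2 and Ryk. Of 49662 genes in the deposited table, 52 were members. The RNA-seq covered wild-type hearts at normal oxygen (wild-normoxia, 4 samples), wild-type hearts from mothers kept at 14% oxygen from gestation day 10 (wild-hypoxia, 3 samples), and hearts with a heterozygous Nkx2-5 mutant knock-in allele at normal oxygen (mutant-normoxia, 3 samples). Nkx2-5 encodes a homeobox factor needed for heart formation, and a knock-in allele is carried by all tissues of the embryo. Mothers were wild-type inbred mice of the strain to which the mutant line had been backcrossed, and RNA from 2 to 3 whole hearts was combined in each sample. Hypoxic hearts with the mutant allele were not analysed here. The deposited table gives 1 estimated count per gene and group, in fragments, and no value for a single sample. No spread between samples and no test could therefore be computed from it.

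Wnt proteins are secreted lipid-modified ligands that bind frizzled receptors at the cell surface. With the co-receptors Lrp5 and Lrp6 they stabilise beta-catenin, which acts with Lef1 and Tcf7 in the nucleus, whereas other Wnt proteins act through Ror and Ryk receptors on cell shape and polarity. Sfrp proteins, Wif1 and some Dkk proteins restrain the pathway outside the cell, and R-spondins strengthen it by binding Lgr receptors. In the embryonic heart the pathway is known for roles in progenitor expansion, outflow tract growth and valve formation, and in skin, limb and lung several Wnt ligands are made by the epithelium.

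Group values are given in the order wild-normoxia, wild-hypoxia, mutant-normoxia, and fold changes in the order wild-hypoxia, mutant-normoxia, each against wild-normoxia unless another group is named. Model standard errors follow a fold change in parentheses. Each log2 fold change compares group values after adding 1 fragment. The model standard error was calculated from the variance that the authors deposited beside each count, divided by the number of samples in the group. It describes the counting and dispersion model and is not a spread between samples. Of the 52 members, 47 had at least 10 fragments in some group and were compared, as were 17204 genes in all. The 5 members below that minimum were the ligands Wnt1 and Wnt8a, the inhibitors Sfrp4 and Dkk4, and Rspo4, with 0 to 4.97 fragments. Another 4 members (Wnt3a, Wnt8b, Wnt10a and Wnt10b) had under 10 fragments in wild-normoxia and passed only through a group in which they were higher. Those 4 had to differ between groups to be compared at all, so counts and medians over the compared members are descriptions only.

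Several of the less abundant ligands were higher in both groups. No frizzled receptor, co-receptor, secreted inhibitor or R-spondin receptor was over 2-fold or over 3 model standard errors from wild-normoxia in either, and the nearest to a fold of 2 was Lgr6. In wild-hypoxia, 6 of the 47 compared members were over 2-fold higher (1.08% of all compared genes) and 1 was over 2-fold lower (1.91% of all genes). In mutant-normoxia, 8 were over 2-fold higher (1.59% of all genes) and none lower (0.494% of all genes). Over 3 model standard errors above wild-normoxia lay 5 members in wild-hypoxia (1.03% of all genes) and 7 in mutant-normoxia (1.45%), and as far below it lay none in wild-hypoxia (1.03%) and 1 in mutant-normoxia (0.395%). Without dividing the deposited variance by the sample number, 1 member in each group, Wnt7b, lay over 3 model standard errors. All members over 2-fold were ligands apart from Rspo2 in mutant-normoxia. Genes of low count pass a fold of 2 more often. Among compared genes with a mean under 200 fragments, 2.07% were over 2-fold higher in wild-hypoxia and 3.47% in mutant-normoxia, against 5 and 7 of the 18 members at that level, and 4.65% and 1.11% were over 2-fold lower, against 1 and 0 of the 18. The median log2 fold change of the compared members was 0.07 in wild-hypoxia and 0.10 in mutant-normoxia, beside -0.02 and -0.01 over all compared genes. Over all 52 members, with no minimum, it was 0.03 and 0.09. Both comparisons use the same wild-normoxia value.

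**Figure D1:**
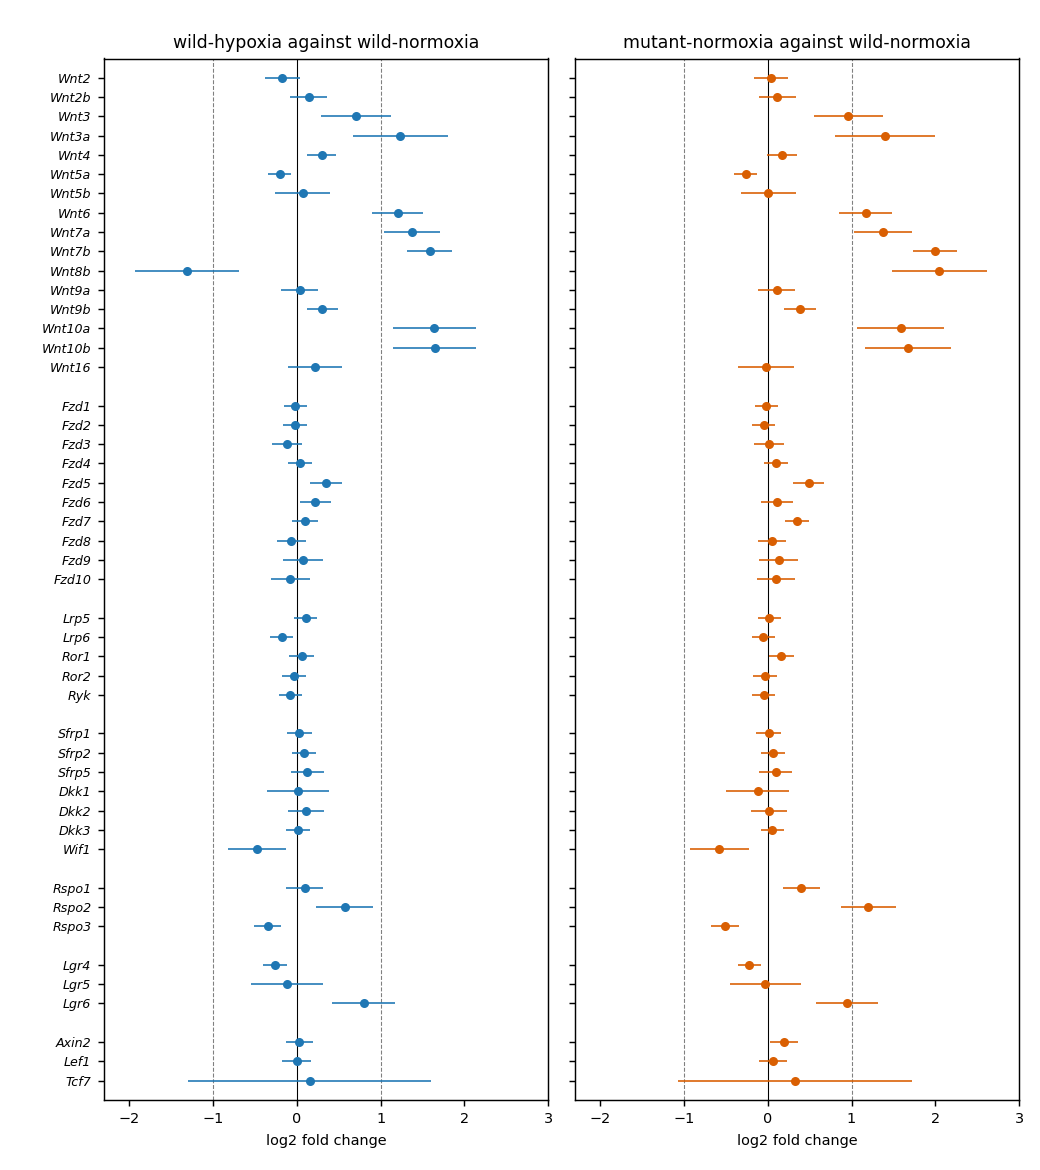
Log2 fold change of each compared Wnt gene (rows, ordered by role) in wild-hypoxia (left) and mutant-normoxia (right) against wild-normoxia. Points are ratios of the group values and bars 1 model standard error, dashed lines mark a fold of 2, and the points beyond them are ligands, with Rspo2 in mutant-normoxia.

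Wnt7b, a ligand made by the lung epithelium, was the member farthest from wild-normoxia in both groups when measured in model standard errors. Its estimated counts were 77.2, 234 and 310.5 fragments, with model standard errors of 11.4, 27.0 and 33.5. Wild-normoxia was lowest and mutant-normoxia highest. Its log2 fold changes were 1.59 (0.27) and 1.99 (0.26), distances of 5.92 and 7.61 model standard errors. Set against mutant-normoxia directly, wild-hypoxia stood at -0.41 (0.23), within 2 model standard errors. In the NCBIM37 (mm9) annotation Wnt7b is a minus-strand gene at chromosome 15, 85365869 to 85412251, its longest transcript has 4 exons, and 38 exon bases overlap an antisense gene. Its close relative Wnt7a, a ligand of dorsal limb ectoderm and nervous system, had 27.7, 73.5 and 73.3 fragments. Both groups stood at the same level above wild-normoxia, with log2 fold changes of 1.38 (0.34) and 1.37 (0.35).

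Wnt6 and Wnt10a are neighbouring genes on chromosome 1, with Wnt6 from 74818466 to 74831893 and Wnt10a from 74838090 to 74850753 on the plus strand, and both are known from surface ectoderm and its appendages. Wnt6 had 53.8, 125 and 122 fragments, so wild-normoxia was lowest. Its log2 fold changes were 1.20 (0.31) and 1.17 (0.32), or 3.93 and 3.70 model standard errors. Wnt10a had 7.12, 24.4 and 23.4 fragments, with log2 fold changes of 1.64 (0.49) and 1.58 (0.52). Wnt10b, a ligand of hair follicle and mammary placodes, had 6.78, 23.3 and 23.9 fragments. The log2 fold changes of Wnt10b were 1.65 (0.50) and 1.68 (0.52), close to those of Wnt10a. Wnt3a, a ligand of the primitive streak and dorsal neural tube, was over 2-fold higher but within 3 model standard errors, with 6.21, 15.9 and 18.0 fragments and log2 fold changes of 1.23 (0.57) and 1.40 (0.60). For Wnt6, Wnt7a, Wnt10a, Wnt10b and Wnt3a the wild-hypoxia and mutant-normoxia values differed by 0.01 to 0.29 model standard errors. Wnt3, a ligand of the epidermis and limb ectoderm, had 24.9, 41.2 and 49.4 fragments and stayed under a fold of 2, at 0.71 (0.42) and 0.96 (0.41). With a pseudocount of 10 the low counts shrink most, and Wnt3a came to 0.68 and 0.79, Wnt10a in mutant-normoxia to 0.96 and Wnt10b in wild-hypoxia to 0.99, all below a fold of 2.

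**Figure D2:**
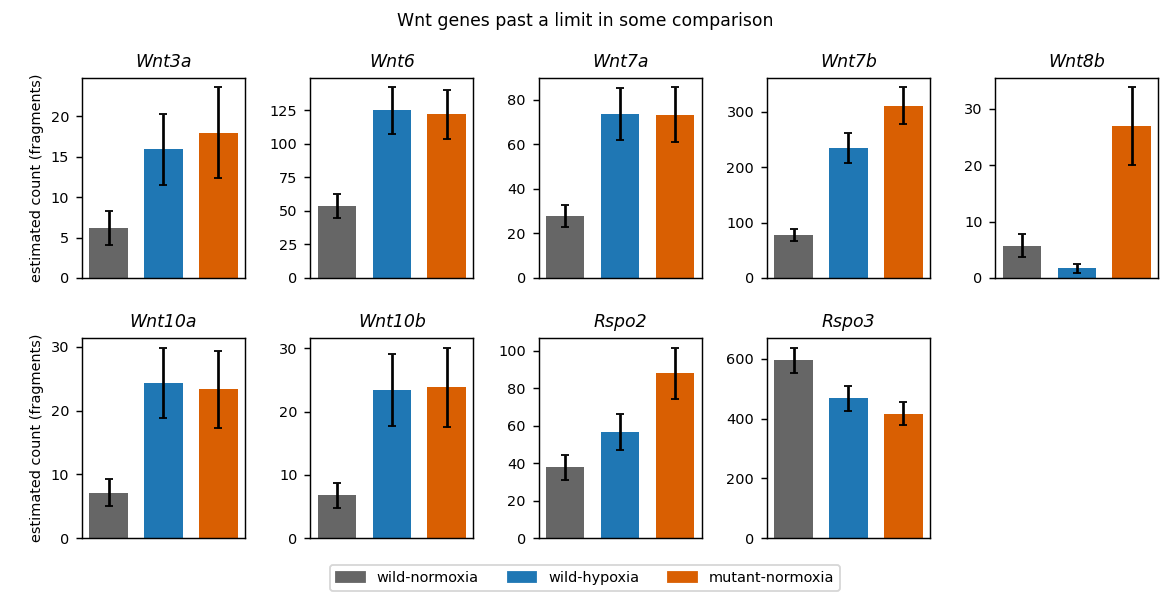
Estimated counts (fragments) in wild-normoxia, wild-hypoxia and mutant-normoxia of the 9 Wnt genes that were over 2-fold or over 3 model standard errors in some comparison. Bars are the deposited group values, whiskers 1 model standard error of the value, and each axis starts at 0. Wnt7b is at 77.2, 234 and 310.5 fragments.

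Wnt8b, a ligand of the forebrain, was the 1 compared member past a limit between wild-hypoxia and mutant-normoxia. Its counts were 5.75, 1.72 and 26.9 fragments. It was lowest in wild-hypoxia and highest in mutant-normoxia, and all values are low. The log2 fold changes were -1.31 (0.62) and 2.05 (0.57), or -2.12 and 3.60 model standard errors. Directly compared, wild-hypoxia stood at -3.36 (0.56) relative to mutant-normoxia, or -5.97 model standard errors. Of all compared genes, 1.97% were over 2-fold and 0.779% over 3 model standard errors between these groups. Of those with a mean under 200 fragments, 4.93% and 1.46% were. The 1 member of 47 past either limit makes 2.13%, near the share over all genes for a fold of 2. It rests on 1 gene of low count, so it says little of the members. Wnt8b had passed the minimum only through mutant-normoxia. With a pseudocount of 10 its log2 fold changes were -0.43 and 1.23, so that in wild-hypoxia it was no longer past a fold of 2. In the list of neural genes, 3 of 11 compared were over 2-fold lower and 1 higher in wild-hypoxia (1.91% and 1.08% of all genes). In mutant-normoxia 1 was lower and 1 higher (0.494% and 1.59% of all genes). The summed level of that list was 1251, 988 and 1478 fragments, no gene of it was at 0, and its part in the Wnt8b values was not tested.

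Upstream sequence is shown for the 3 of these ligands whose windows could be printed. Wnt7a and Wnt3a were among the 6 ligands over 2-fold higher in both groups, and Wnt8b was not. The windows of Wnt6 and Wnt10b were searched but are not printed. Wnt7b, Wnt10a and Rspo2 had no promoter entry, so the windows do not cover the ligands that were higher. The 100 bases before the RefSeq start are given 5′ to 3′ on the gene's strand in GRCm38.p6, with CG dinucleotides in capitals. They lie at chr6:91411354-91411453 (minus strand), chr11:59290752-59290851 (minus strand) and chr19:44493372-44493471 (plus strand).
Wnt7a: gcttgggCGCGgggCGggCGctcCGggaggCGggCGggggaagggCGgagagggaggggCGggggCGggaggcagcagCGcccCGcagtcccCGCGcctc
Wnt3a: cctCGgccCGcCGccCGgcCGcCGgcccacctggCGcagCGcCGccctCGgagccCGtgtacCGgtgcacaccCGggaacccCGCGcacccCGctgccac
Wnt8b: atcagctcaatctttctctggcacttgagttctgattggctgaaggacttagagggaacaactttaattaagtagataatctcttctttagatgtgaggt
Over the 250 bases before the start, Wnt7a held 34 CG dinucleotides, Wnt3a 41, Wnt6 28, Wnt10b 14 and Wnt8b 5, beside a median of 6 over the 32851 promoters of the table. Of all promoters, 96.5% held fewer than Wnt7a and 44.4% fewer than Wnt8b. The 41 entries that matched 35 of the 52 members had a median of 21. Both strands of these 250 bases were searched for ACGTG, the core of hypoxia response elements, for ATCAAAG, a TCF/LEF site, and for TTAAGTG, an Nkx2-5 site, which stand in 16.6%, 3.21% and 2.10% of all promoters. None of these motifs was in the windows of Wnt3a, Wnt6, Wnt7a, Wnt8b or Wnt10b, while ACGTG was in those of 7 members, such as Lef1 and Wnt9a, ATCAAAG in that of Wnt5b, and TTAAGTG in none. Only these exact strings were searched, so variants of the sites were missed. The Wnt8b bases shown hold cacttga, the reverse complement of TCAAGTG, a near variant of TTAAGTG. Other variants may stand in these windows. A match or its lack in such a window says nothing of binding.

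The ligands of highest level lay near their wild-normoxia value. Levels were compared between genes as fragments per kilobase of the longest annotated transcript. Wnt5a, a ligand of the outflow tract that acts largely without beta-catenin, was the highest of the 18 ligands in all groups, at 307, 266 and 256 fragments per kilobase. Wnt5a counts were 2151, 1867 and 1793 fragments, giving log2 fold changes of -0.20 (0.14) and -0.26 (0.14). Of its exon bases 358 overlap an antisense gene, as do 347 of Sfrp2 and 209 of Axin2. Wnt5b, Wnt2, a ligand of cardiac progenitors and lung mesenchyme, and Wnt4 followed in wild-normoxia at 104, 103 and 91.3 fragments per kilobase, and neighbours among these differed by less than 1 model standard error. Wnt9b, a ligand made by the endocardium during valve growth, was next at 59.6 per kilobase and had log2 fold changes of 0.31 (0.19) and 0.38 (0.19). Wnt4, which also serves valve formation, was at 0.29 (0.17) and 0.17 (0.18). Wnt2, Wnt2b, Wnt5b, Wnt9a and Wnt16 were between -0.17 and 0.22 in both groups. The 6 ligands that were over 2-fold higher in both groups made up 7.62% of the fragments per kilobase of these 18 ligands in wild-normoxia, against 18.3% under hypoxia and 19.97% in the mutant. These 6 were picked for being higher, so the shares are a description only.

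**Figure D3:**
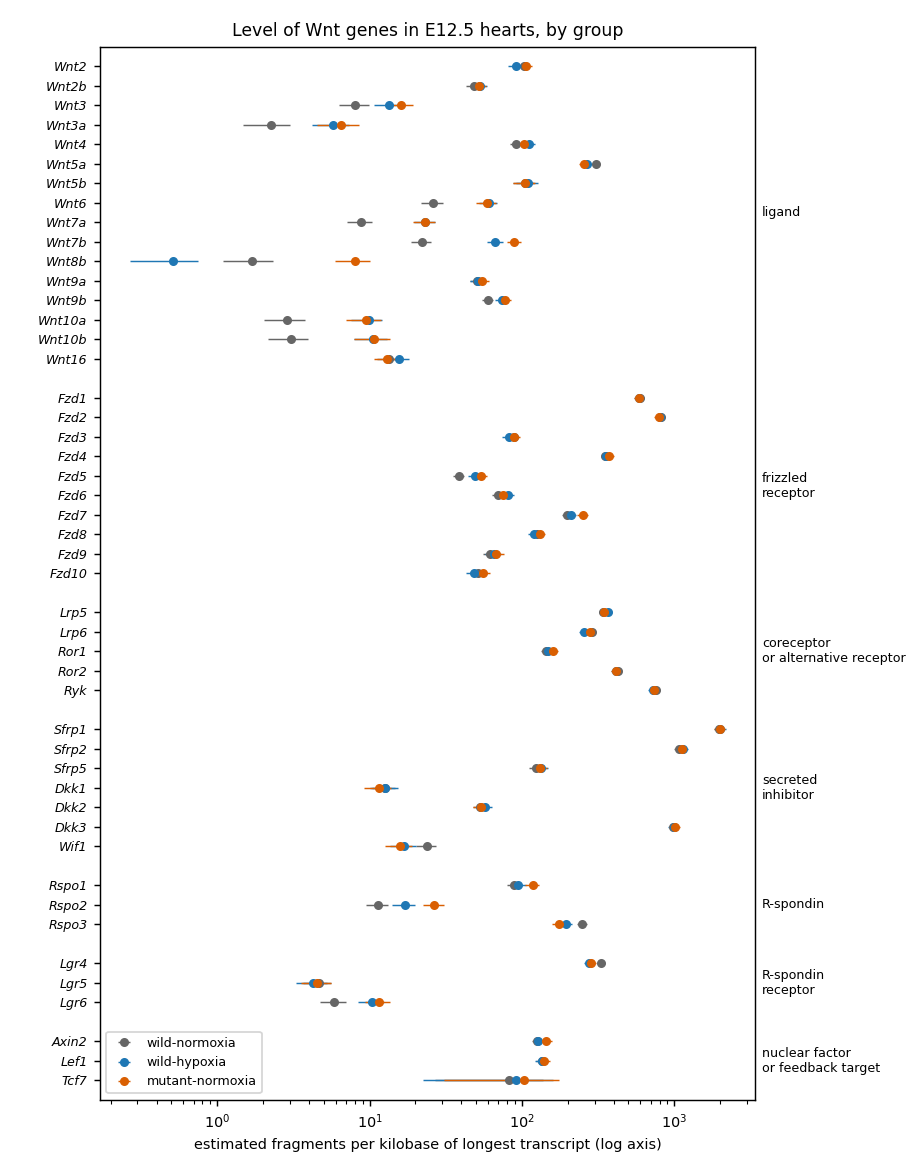
Level of each compared Wnt gene, in estimated fragments per kilobase of its longest transcript (log axis), in the 3 groups, with genes ordered by role. Points are group values and bars 1 model standard error, which is wide for Tcf7. In wild-normoxia Sfrp1 is highest, at 1967 per kilobase, and among ligands Wnt5a, at 307.

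Frizzled receptors, the cell-surface receptors of Wnt proteins, were all compared, and none of the 10 was over 2-fold or over 3 model standard errors in either group. In each direction and group, 0.395% to 1.91% of all compared genes passed such a limit, so none of 10 says little. Fzd2 and Fzd1 were the most abundant, with 2961, 2916 and 2866 fragments for Fzd2 and 2611, 2579 and 2581 for Fzd1. Per kilobase, Fzd2, Fzd1 and Fzd4 led in wild-normoxia, at 816, 597 and 351 fragments, each step over 3 model standard errors. Fzd4, the receptor of vascular Norrin signalling, was at 0.03 (0.14) and 0.10 (0.14) on the log2 scale. Fzd5 stood farthest from wild-normoxia, with 266, 340 and 374 fragments and log2 fold changes of 0.35 (0.19) and 0.49 (0.19), a distance of 2.63 model standard errors in the mutant. Fzd7 followed in mutant-normoxia at 0.35 (0.15), from 944 to 1203 fragments. The other 8 receptors were within -0.11 and 0.22 in both groups. Fzd10 shares 2430 exon bases with another annotated gene on the same strand, which the deposited table does not hold. Whether the overlap affected the Fzd10 count of 159 to 180 fragments is not known.

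Co-receptors and alternative receptors lay between -0.18 and 0.16 on the log2 scale in both groups. Lrp6, which carries the Wnt signal together with frizzled receptors, had 2718, 2400 and 2620 fragments. Its log2 fold changes were -0.18 (0.14) and -0.05 (0.14). Lrp5 was at 0.10 (0.14) and 0.02 (0.14), Ryk, a receptor related to tyrosine kinases, at -0.08 (0.14) and -0.05 (0.14), and the Wnt5a receptor Ror2 at -0.03 (0.14) in both. None of these lay beyond 1.29 model standard errors. Per kilobase Ryk was the highest of the 5 in wild-normoxia, at 760 fragments, and Ror1 the lowest, at 143.

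Secreted inhibitors, with every Dkk gene counted among them, included the most abundant member. Of the 7 compared, 6 lay within 1 model standard error of wild-normoxia in both groups. Sfrp1, a decoy that binds Wnt proteins, had 8599, 8779 and 8658 fragments. Its log2 fold changes of 0.03 (0.15) and 0.01 (0.15) were far inside 1 model standard error. Sfrp2 was at 0.09 (0.14) and 0.06 (0.14), and Dkk3, a member of the Dickkopf family, at 0.01 (0.14) and 0.05 (0.14), from 3293 fragments. Sfrp5, an inhibitor made by the sinus venosus and foregut, was at 0.13 (0.20) and 0.10 (0.20). Dkk1, which blocks Lrp5 and Lrp6, was low, with 30.5, 30.8 and 27.97 fragments. Wif1, a secreted Wnt binding protein, was the 1 inhibitor outside 1 model standard error, with 54.5, 38.9 and 36.2 fragments and log2 fold changes of -0.48 (0.34) and -0.58 (0.35).

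R-spondins were at different distances from wild-normoxia. Rspo3, known from coronary and vascular development, was the most abundant, with 594, 467 and 416 fragments. It was highest in wild-normoxia, and its log2 fold changes were -0.35 (0.16) and -0.51 (0.17), or -2.12 and -3.07 model standard errors. It was the 1 member over 3 model standard errors below wild-normoxia. Rspo2, known from limb and lung, had 37.7, 56.5 and 88.1 fragments. Wild-hypoxia lay between the other groups, and the log2 fold changes were 0.57 (0.34) and 1.20 (0.33), or 1.68 and 3.69 model standard errors. Relative to mutant-normoxia, wild-hypoxia stood at -0.63 (0.33). In NCBIM37 Rspo2 is a minus-strand gene at chromosome 15, 42852357 to 43002364. Rspo1 was at 0.09 (0.23) and 0.40 (0.22), from 163 fragments. Among the receptors of R-spondins, Lgr4 had 1675, 1395 and 1440 fragments and log2 fold changes of -0.26 (0.14) and -0.22 (0.14). Lgr5, a target of beta-catenin in many epithelial stem cells, was low in every group, with 22.3, 20.5 and 21.8 fragments. Lgr6, a gene of skin and its appendages, had 21.2, 37.7 and 41.8 fragments, with 0.80 (0.38) and 0.95 (0.37).

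Of the genes that read out beta-catenin signalling, Axin2 and Lef1 were near their wild-normoxia level. Axin2, a feedback inhibitor that beta-catenin switches on, had 536, 547 and 614 fragments. This gave log2 fold changes of 0.03 (0.16) and 0.20 (0.16). Lef1 had 493, 492 and 514 fragments and was at -0.00 (0.17) and 0.06 (0.17). Tcf7 was at 0.15 and 0.32, with model standard errors of 1.45 and 1.40, too wide to place it above or below wild-normoxia.

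**Figure D4:**
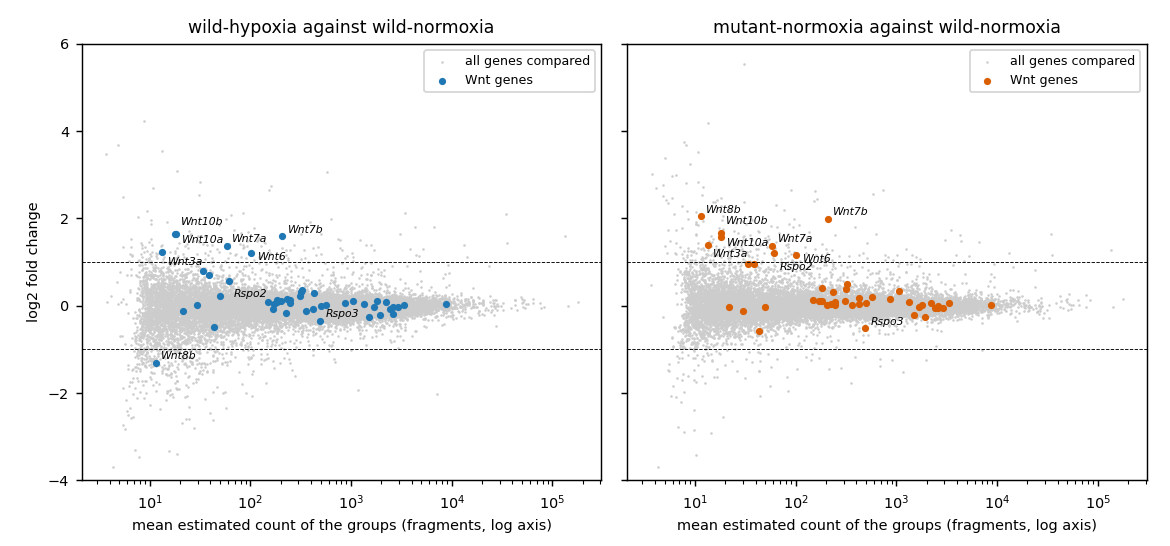
Log2 fold change against the mean estimated count of the 3 groups (log axis) for all compared genes (grey) and the compared Wnt genes (coloured), in wild-hypoxia (left) and mutant-normoxia (right). Dashed lines mark a fold of 2. The Wnt genes beyond them lie at low to middle counts, where the grey points also spread more widely, and Wnt7b lies farthest right among them.

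Most other genes of the pathway were near their wild-normoxia level. Of 29 compared genes for intracellular steps, such as Ctnnb1, Apc and Gsk3b, none was over 2-fold or over 3 model standard errors, and the medians were 0.01 in wild-hypoxia and 0.04 in mutant-normoxia. The same held for 23 genes of planar cell polarity, with medians of -0.01 and -0.04. Over all compared genes, 1.08% were over 2-fold higher and 1.91% lower in wild-hypoxia, and 1.59% and 0.494% in mutant-normoxia. Over 3 model standard errors, the shares were 1.03% higher and 1.03% lower in wild-hypoxia, and 1.45% and 0.395% in mutant-normoxia. Beside shares this small, a count of none in lists of this size says little. Of 22 genes for Wnt secretion and extracellular control, 1 was over 2-fold higher in wild-hypoxia (1.08% of all genes) and 2 in mutant-normoxia (1.59%). Their medians were 0.07 and 0.03. Kremen2, a Dickkopf receptor, had 16.7, 45.5 and 49.1 fragments and log2 fold changes of 1.39 and 1.499, with wide model standard errors of 0.97 and 1.14. Sostdc1, an inhibitor of skin appendage placodes, had 22.8, 36.2 and 46.8 fragments, with 0.65 (0.43) and 1.009 (0.42). The 17 compared target genes had medians of -0.01 and 0.03. None was over 2-fold in wild-hypoxia and 1 was lower in mutant-normoxia (0.494% of all genes). That gene, Tnfrsf11b, which encodes osteoprotegerin, had 20.7, 17.9 and 9.66 fragments and log2 fold changes of -0.20 (0.42) and -1.03 (0.44).

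Most compared markers of basal epithelium were higher in the same groups as several of the less abundant ligands. Of all compared genes, 1.08% were over 2-fold higher and 1.91% lower in wild-hypoxia, and 1.59% and 0.494% in mutant-normoxia. Of the 9 markers of basal epithelium, 8 were compared, and 5 were over 2-fold higher in wild-hypoxia and 5 in mutant-normoxia. The other 3, Perp, Krt8 and Krt18, were between -0.20 and 0.45 in both groups. Krt5, a keratin of basal epidermis, was farthest from wild-normoxia, with 113, 950 and 675 fragments, and Trp63, a factor of basal epithelial cells, had 57.5, 161 and 188. The summed level of the list was 2517, 3915 and 3589 fragments, none of the markers was at 0 in any group, and the ninth, Dsg3, had 1.05 to 2.95 fragments. Of 12 markers of foregut and lung bud epithelium, 1 was over 2-fold higher and 1 lower in wild-hypoxia, and 8 were higher in mutant-normoxia. Nkx2-1, a factor of lung and thyroid that passed the minimum only through mutant-normoxia, had 0.775, 9.32 and 81.6 fragments. Foxa1 and Foxa2 also had under 10 fragments in wild-normoxia and passed only through groups in which they were higher. Shh and Sox2, a ligand and a factor of foregut epithelium, were lowest in wild-hypoxia, with 12.8, 5.82 and 33.3 and with 76.0, 41.6 and 157.9 fragments. The list summed to 5306, 5348 and 5699 fragments, most of it from Id2, which is not limited to epithelium, and none was at 0. Of 7 compared markers of lung bud and foregut mesenchyme, 2 were over 2-fold higher in wild-hypoxia and 5 in mutant-normoxia. They summed to 502, 685 and 990 fragments, with none at 0. Among them Foxf2, Nkx3-2 and Nkx6-1 were under 10 fragments in wild-normoxia and passed only through higher groups. Counts over both of these lists are therefore descriptions only. Barx1, a homeobox gene of stomach mesenchyme, had 27.99, 60.8 and 182 fragments, in the same group order as Rspo2. The part of these tissues in the Wnt values was not tested. In such bulk samples fewer cells of a type and less RNA per cell cannot be told apart.

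**Figure D5:**
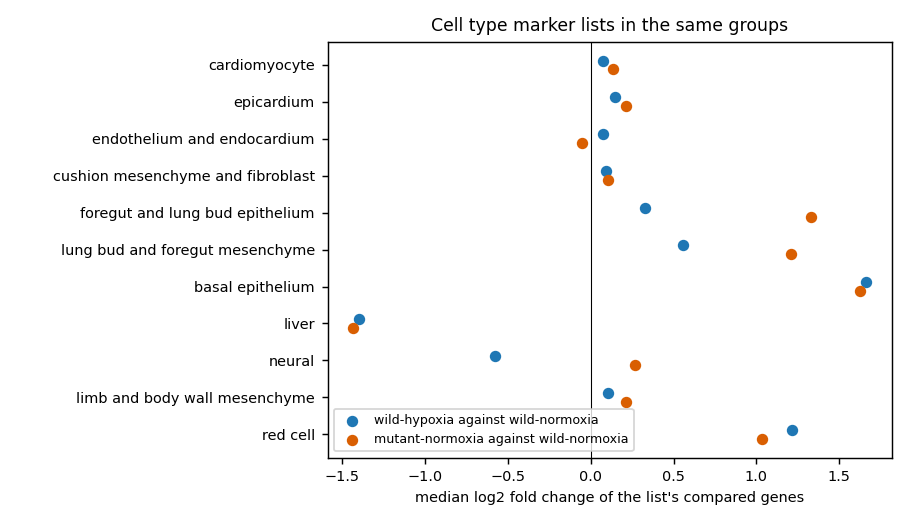
Median log2 fold change of the compared genes of each cell type marker list, in wild-hypoxia and in mutant-normoxia against wild-normoxia. Each point is 1 list in 1 comparison, without an error. Basal epithelium is at 1.66 and 1.62, foregut and lung bud epithelium at 0.33 and 1.33, liver at -1.40 and -1.43, and cardiomyocytes at 0.07 and 0.14.

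The defining markers of heart were present. The 12 cardiomyocyte genes summed to 612225 to 659364 fragments in the groups, and none of them, nor of the endothelial and cushion genes, was over 2-fold in either comparison. Of 9 epicardial genes none was over 2-fold, with medians of 0.15 and 0.21. The retinoic acid enzyme gene Aldh1a2 was the 1 over 3 model standard errors higher in mutant-normoxia (1.45% of all genes), at 0.62 (0.15). The medians were 0.07 and -0.05 for endothelium and endocardium, 0.09 and 0.10 for cushion mesenchyme and fibroblasts, 0.10 and 0.21 for limb and body wall mesenchyme, -0.58 and 0.27 for neural genes, and 1.21 and 1.04 for the 6 compared red cell genes. Of 11 compared liver genes, 11 were over 2-fold lower in wild-hypoxia and 9 in mutant-normoxia. The liver list summed to 5044, 1683 and 1892 fragments, highest in the wild-normoxia group that both comparisons share. Of the 10 limb and body wall genes, 2 were over 2-fold higher in wild-hypoxia, the skeletal muscle factors Myod1 (1.39) and Myog (1.34), and 1 was lower, Pax3 (-1.91). In mutant-normoxia 3 were over 2-fold higher, Myod1 (1.71), Myog (1.25) and Tbx15 (1.59), and none was lower. Over all compared genes the shares were 1.08% higher and 1.91% lower in wild-hypoxia, and 1.59% and 0.494% in mutant-normoxia. The part of these tissues in the Wnt values was not tested either. Nkx2-5 had 3689, 4131 and 4106 fragments, and its count does not tell the mutant allele from the wild-type allele. The estimated counts of the groups summed to 18537799 to 19577071 fragments, and 34 genes without a successful estimate in some group were left out, none of them a Wnt gene.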

How the data were processed

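RNA-seq was performed on poly-adenylated RNA of E12.5 hearts in 10 samples of 3 groups, assigned from the submitters' labels. The authors mapped single-end reads to the mm9 genome with Bowtie2 and TopHat and quantified genes with Cufflinks. No source used here names tool versions or the annotation release. The deposited table gives, for each gene and group, an estimated count (fragments) and a model variance (squared fragments). No scaling was added. The planned count test needs values per sample and could not be run, so log2 ratios of group values (pseudocount 1, minimum 10 fragments) were computed without a test, as set down for this case. For model standard errors the deposited variance was divided by a group's sample number, and those under 0.05 (3 genes) were not used. Whether counting used strand is not stated in these sources, so overlapping genes are uncertain. Symbols, for 65.9% of 49662 identifiers, came from reference tables, and positions and transcript lengths from the NCBIM37 annotation. The table holds no coordinates, and although mm9 is named, gene positions listed by the study differ from NCBIM37, so the lengths, positions and overlaps given are those of NCBIM37 and may not match the gene models that were counted. Another Wnt ligand gene is not reported here. Promoters are from RefSeq (GRCm38.p6), and windows inside a longer RefSeq gene model were searched but are not printed.

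Members and lists were chosen with earlier results of these data known. Named in full are members over 2-fold or over 3 model standard errors in some comparison, the 3 of highest count per role, Wnt7b, Rspo2, Axin2, Lef1, Tcf7 and Lgr5, and up to 4 genes per further pathway list past a limit. Wnt3, Wnt9a, Wnt16, Fzd5, Fzd7, Fzd10, Ror1, Ror2, Sfrp5, Dkk1, Wif1 and the marker genes were named after their values were seen, as were the members printed for a motif or for lying below the minimum. The error formula was tested on simulated data drawn with the deposited variance as that of a single sample. Whether that variance should be divided by the sample number was therefore not tested. Python 3.11.15, numpy 2.4.6 and pandas 2.3.3 were used. Alternatives were pseudocounts of 10 and 0.1, a minimum of 50 fragments or none, scaling to a median ratio of 0 over genes with at least 100 fragments, and undivided variances.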

Additional observations from a re-analysis of the deposited data

How the results depend on the processing

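With 1 value per group, no error between samples, no test and no left-out sample can be had. No paired analysis was possible because the table carries no value for a single sample, and the count tests and the fits without each replicate were not run for the same reason. A pseudocount of 10 lowered the members over 2-fold in wild-hypoxia from 7 to 4 and in mutant-normoxia from 8 to 6. A minimum of 50 fragments left 39 members, and by leaving out low genes it lowered those over 2-fold to 3 in wild-hypoxia, 4 in mutant-normoxia and 0 between these groups, and those over 3 model standard errors to 3, 5 and 0. Without a minimum, 3 members in place of 1 were over 2-fold between wild-hypoxia and mutant-normoxia. With undivided variances, 1 member stayed over 3 model standard errors in wild-hypoxia and 1 in mutant-normoxia, in place of 5 and 8. Under scaling and a pseudocount of 0.1 each of these counts stayed within 1.5 times its value. No called value of a named gene changed sign under any alternative run. Shares over all compared genes are given for the main setting only, so counts under the alternatives describe the members alone.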

Other observations

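Values are given here for neighbouring pairs of Wnt genes. On chromosome 11, Wnt3 had log2 fold changes of 0.71 (model standard error 0.42) under hypoxia and 0.96 (0.41) in the mutant, while its neighbour Wnt9b was at 0.31 (0.19) and 0.38 (0.19). Wnt3a and Wnt9a, also neighbours on chromosome 11, were at 1.23 and 0.03 under hypoxia, and at 1.40 and 0.11 in the mutant. Wnt10b was over 2-fold higher in both groups, while its neighbour Wnt1, an organiser of the midbrain, had 4.71, 0.96 and 3.81 fragments (wild-normoxia, wild-hypoxia, mutant-normoxia), too few to compare. These pairs were looked at after the values were seen, and the difference within a pair was not tested.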
